A study of Mus musculus with 12 samples.

Results

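Gria1 and Gria2 encode GluA1 and GluA2, pore-forming subunits of the AMPA receptor, and the m6A peaks listed across both genes in mouse hippocampus were compared between 6 and 2 weeks of age. A peak belonged to Gria1 when it touched chromosome 11 from 56824000 to 57144500, and to Gria2 when it touched chromosome 3 from 80484500 to 80608000 (mm9). The rule used position alone and no measured value. It took 84 of the 148097 listed peaks for Gria1 and 29 for Gria2. After peaks sharing at least 1 bp were merged, 63 and 14 regions remained, 77 of 70674 in all.

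The samples were hippocampi of wild-type male C57BL/6 mice, 2 libraries from mice of 6 weeks and 2 from mice of 2 weeks. Poly(A)+ RNA fragments were pulled down with an antibody against N6-methyladenosine (m6A), and peaks are places where this immunoprecipitate (IP) held more sequence tags than a control, taken here to be input libraries of unselected fragments because the labels describe such inputs for both ages and the lists do not name their control. Each age has biological replicates 1 and 2 per the labels, which give no animal numbers and do not mention pooling, so p-values measure the spread between these samples. The other 8 of the 12 samples, the input libraries themselves and adult wild-type and Fto knock-out hippocampi, were not analysed here.

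AMPA receptors are cation channels that glutamate opens, and they carry most of the fast excitatory current at hippocampal synapses. GluA1 is the subunit best known for being phosphorylated and moved into synapses during long-term potentiation. GluA2, once its messenger has been edited by the deaminase ADAR2, makes the channel nearly impermeable to calcium. m6A is written on messenger RNA by the METTL3 complex and can be erased by FTO or ALKBH5, and in mammals it is densest around stop codons and in the last exons.

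IP depth, recovered from how the deposited values are scaled, was 16.1 M and 16.5 M tags (M, mega) at 6 weeks and 23.4 M and 23.0 M at 2 weeks. Control depth was 15.8 M and 11.7 M tags at 6 weeks and 29.3 M and 16.8 M at 2 weeks. The 6-week libraries were thus the shallower ones, and depth and age cannot be told apart by design. All lists start at 3-fold over control. Replicates differed by more than sampling noise, with a chi-square per degree of freedom of 22 at 6 weeks and 16.7 at 2 weeks in IP tags. Tags are given per 10000000 tags of the library (per 10M), the scale that the deposited values imply if the peak caller HOMER ran with its default.

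Each gene carried 1 short stretch of m6A peaks that were strong at both ages. It is taken here as the span of the regions above 200 IP tags per 10M in at least 3 libraries. This limit was set after the values were seen, so the values inside the stretch are a description. The limit requires strong peaks at both ages, so the shared place follows from it. Peaks strong in fewer libraries do not define the stretch. In Gria1, transcribed toward higher coordinates, the stretch ran from 57141067 to 57143326, a span of 2259 bp that ended 1174 bp short of the high end of the window. In Gria2, which RefSeq places on the minus strand, it ran from 80491889 to 80492590, a span of 701 bp that began 7389 bp from the low end. In both genes the strong stretch therefore lay toward the 3' end. Exon and UTR annotation in mm9 was not used here. In GRCm38.p6, 0 other RefSeq genes overlap either gene, which bears on these libraries because their kit does not mark strand.

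The Gria1 stretch made up 0.705% of its window. It held 82.4% and 83.0% of all IP tags in Gria1 peaks at 6 weeks, against 95.2% and 95.8% at 2 weeks. The Gria2 stretch made up 0.568% of its window and held 98.4% and 88.1% of the IP tags in Gria2 peaks at 6 weeks, against 99.6% and 98.0% at 2 weeks. Of the tags in listed Gria1 peaks, the 6-week libraries thus had a larger share outside the strong stretch, and in Gria2 the ages overlapped. Tags where no peak was listed are not in these shares. In Gria1, 29 and 27 peaks were listed outside the stretch at 6 weeks, against 6 and 7 at 2 weeks. In 6-week replicate 1 a single peak held 298 of the 827 IP tags per 10M outside the stretch. How far the number of peaks sets the shares was not tested. Such shares were not computed for other genes.

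**Figure D1:**
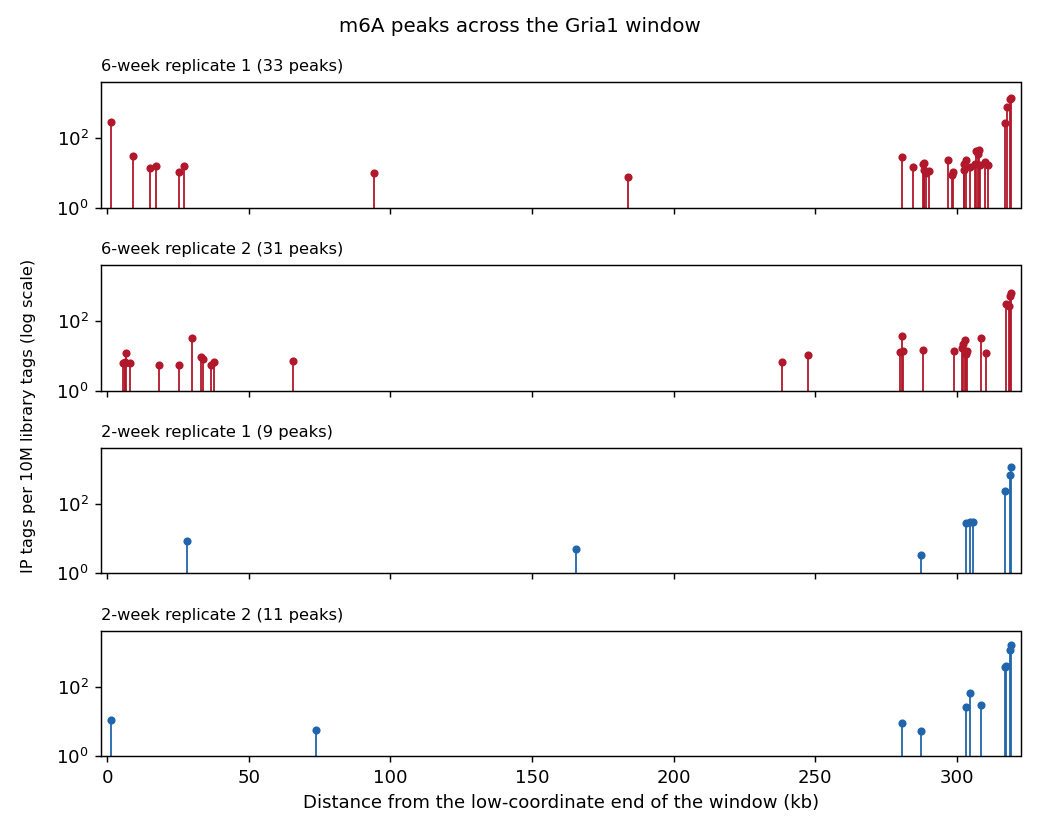
Peaks across the Gria1 window in each library. Each stem is 1 peak, placed by its distance in kb from the low-coordinate end, with its height in IP tags per 10M on a log axis (red, 6 weeks; blue, 2 weeks); the tallest peaks stand at the right end in all 4 libraries, and the 6-week libraries hold 33 and 31 peaks against 9 and 11 at 2 weeks.

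Of the 63 Gria1 regions, 4 were called in all 4 lists, and they are numbered here from low to high coordinates. Region 4, from 57143219 to 57143326, held the most IP tags of these 4 on average. Its IP tags were 1432 and 648 per 10M at 6 weeks, against 1133 and 1613 at 2 weeks. Its control tags were 143 and 107 per 10M at 6 weeks, against 152 and 236 at 2 weeks. The peak started at the same base, 57143219, in 3 lists and at 57143226 in 2-week replicate 2, and by normalized tag count it ranked 102 and 127 at 6 weeks, against 112 and 94 at 2 weeks. The IP values of the ages overlapped. Control tags were fewer in each 6-week library than in either 2-week library, which was also so in 48.0% of the regions with 1 peak in each list.

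Region 3, from 57142879 to 57142988, held 1364 and 528 IP tags per 10M at 6 weeks, against 672 and 1113 at 2 weeks. Its control tags were 91.2 and 124 per 10M at 6 weeks, against 111 and 153 at 2 weeks. The enrichment over control, the ratio of these values, was 14.9 and 4.26 at 6 weeks, against 6.08 and 7.26 at 2 weeks. In IP tags and in enrichment the 6-week replicates stood on either side of both 2-week libraries, so the spread within 6 weeks exceeded any difference between the ages.

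Region 2, from 57141067 to 57141351, held 270 and 312 IP tags per 10M at 6 weeks, against 239 and 374 at 2 weeks. Its control tags were 81.7 and 77.7 per 10M at 6 weeks, against 52.5 and 78.4 at 2 weeks. The ages overlapped in both fractions. Its enrichment was 3.30 and 4.01 at 6 weeks, against 4.55 and 4.76 at 2 weeks, so both 6-week values were the lower ones, as in 10.8% of the regions with 1 peak and a control tag in each list. The peaks that make up this region started up to 184 bp apart between libraries, so the tags were not counted over the same bases.

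Region 1, from 57127247 to 57127405, was a weak peak some way upstream. It held 24.2 and 11.5 IP tags per 10M at 6 weeks, against 27.3 and 26.6 at 2 weeks. These rested on 39 and 19 tags at 6 weeks and 64 and 61 at 2 weeks. Both 6-week libraries were below both 2-week ones, as in 43.2% of the regions with 1 peak in each list. Its controls held 9 and 2 tags at 6 weeks and 19 and 8 at 2 weeks.

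Within the strong Gria1 stretch 3 further peaks were each called in a single library. At 6 weeks they were a peak of 796 IP tags per 10M at 57141810 in replicate 1 and one of 272 at 57142592 in replicate 2, and at 2 weeks one of 379 at 57141454 in replicate 2. These single-list peaks cannot be compared between ages, since the lists give no tags where no peak was called. By the peak caller's own score the top Gria1 peak lay in region 3 and region 2 in 6-week replicates 1 and 2, and in region 4 in both 2-week replicates.

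**Figure D2:**
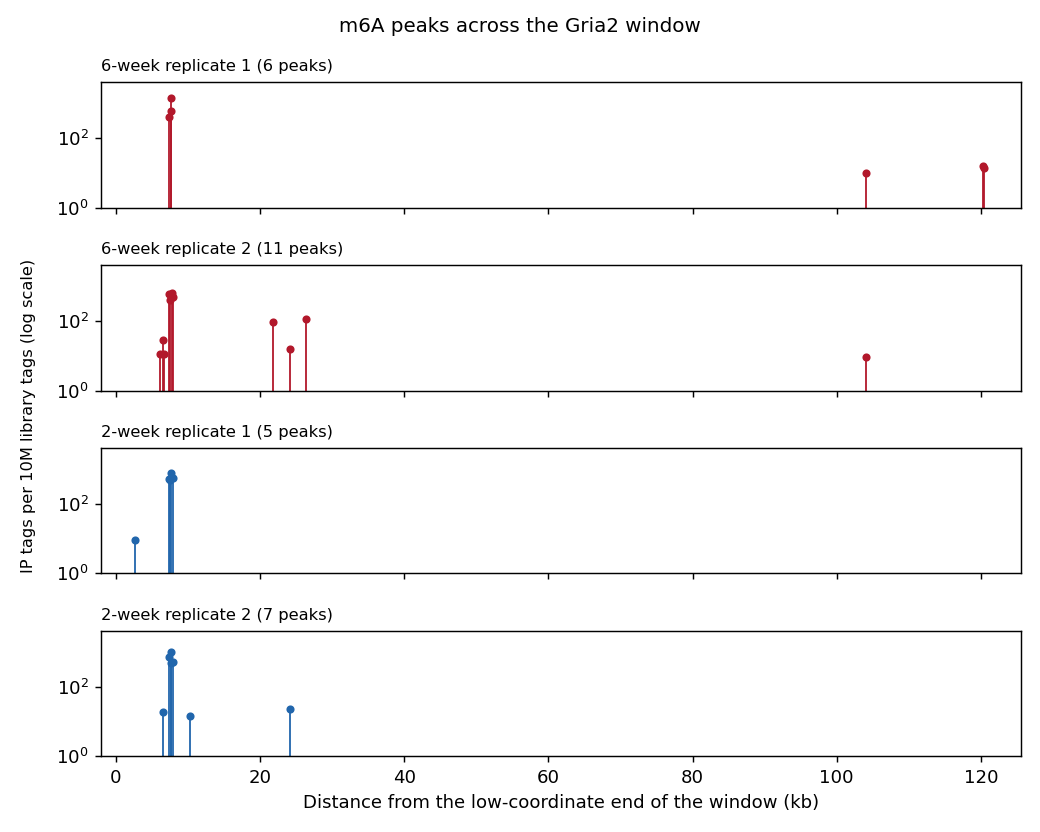
Peaks across the Gria2 window in each library. Each stem is 1 peak, placed by its distance in kb from the low-coordinate end, the 3' side of this gene, with its height in IP tags per 10M on a log axis (red, 6 weeks; blue, 2 weeks); the tallest peaks stand together near the left end in all 4 libraries, with 6 and 11 peaks at 6 weeks and 5 and 7 at 2 weeks.

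Of the 14 Gria2 regions, 2 were called in all 4 lists, and these neighbour each other. Region 1, from 80491889 to 80492124, held 413 and 984 IP tags per 10M at 6 weeks, against 994 and 704 at 2 weeks. Its control tags were 91.9 and 111 per 10M at 6 weeks, against 145 and 128 at 2 weeks. The IP values overlapped between ages, and control tags were fewer in each 6-week library than in either 2-week one, as in 43.0% of the regions called in all 4 lists. The highest-scoring Gria2 peak of every list but 6-week replicate 1, where it lay in region 2, was in region 1. The strongest region 1 peak began at 80491889 in 3 lists and at 80491910 in 6-week replicate 1.

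Region 2 of Gria2, from 80492157 to 80492342, held 2053 and 632 IP tags per 10M at 6 weeks, against 743 and 1472 at 2 weeks. Its control tags were 178 and 110 per 10M at 6 weeks, against 86.0 and 124 at 2 weeks. Its enrichment was 11.5 and 5.74 at 6 weeks, against 8.64 and 11.9 at 2 weeks. The ages overlapped in all of these measures.

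These Gria2 values are sums over all peaks of a list in the region, and some of those peaks overlap. In 6-week replicate 2, peaks starting at 80491889 and 80491954 shared 36 bp, yet held 950 and 674 IP tags and 114 and 16 control tags. In 2-week replicate 2, peaks starting at 80492181 and 80492206 shared 76 bp and held 1098 and 2282 IP tags. In 6-week replicate 1, peaks starting at 80492157 and 80492200 shared 58 bp and held 949 and 2362. Whether tags were counted over exactly the printed bases is therefore uncertain for these peaks. All peaks of the 4 lists are written on the plus strand, although Gria2 lies on the minus strand, and 6-week replicate 2 lists 2 Gria1 peaks at the same start, 56830303, with 11 and 10 IP tags. Whether peaks were called on each strand apart is not given in the sources used here. If they were, the summed Gria2 values would add tags of both strands, and a peak count could count 1 place on each strand. With the strongest peak of each list alone, region 1 of Gria2 held 413 and 575 IP tags per 10M at 6 weeks against 523 and 704 at 2 weeks, and region 2 held 1465 and 632 against 743 and 994.

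The strong Gria2 stretch also had a region from 80492487 to 80492590, which was called in 3 lists. It held 480 IP tags per 10M in 6-week replicate 2, against 547 and 511 at 2 weeks, at 5.45-fold over control in 6-week replicate 2 against 3.40-fold and 3.58-fold at 2 weeks. It was not listed in 6-week replicate 1. Its 2-week folds were close to the 3-fold minimum.

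**Figure D3:**
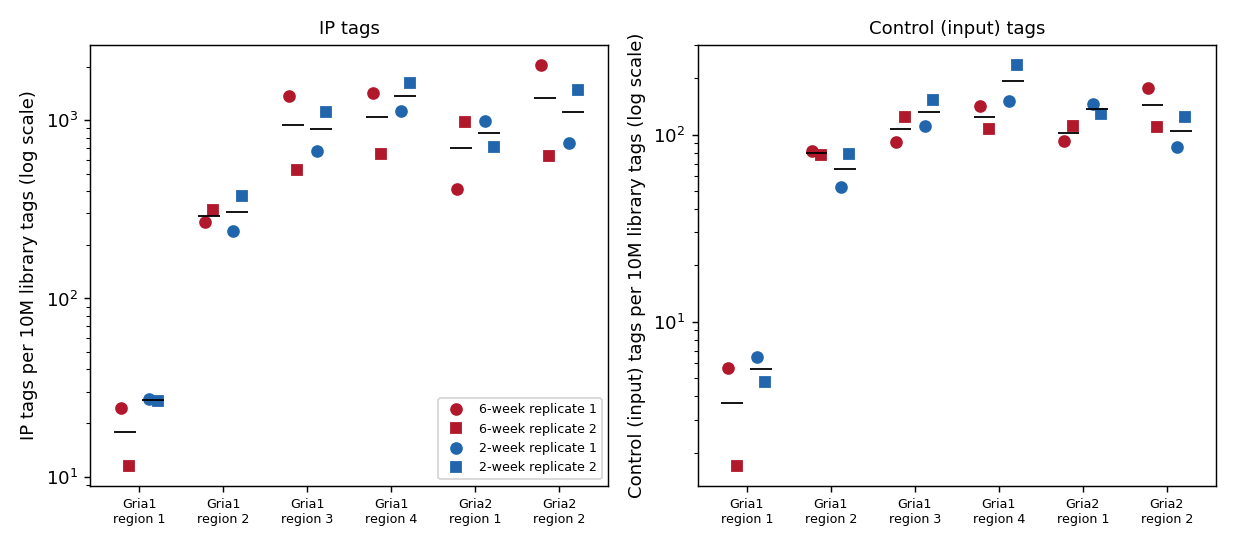
IP tags (left) and control tags (right) per 10M, on log axes, in the 4 Gria1 and 2 Gria2 regions called in all lists. Each point is 1 library (red, 6 weeks; blue, 2 weeks) and each line the mean of an age; the ages overlap in IP tags in all regions but Gria1 region 1, and Gria1 region 4 reaches 1613 IP tags per 10M in 2-week replicate 2.

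The change with age was tested with edgeR's quasi-likelihood fit over all regions that held exactly 1 peak in each list, 4577 in number, with Benjamini-Hochberg adjustment and a threshold of 0.05. The 4 Gria1 regions were among them. No Gria2 region was, since each of its shared regions held more than 1 peak in some list. Gria2 was therefore read from the same fit over all 10203 regions called in every list, with the tags of several peaks summed. Both sets hold only regions at 3-fold or more in all 4 libraries, and a region that is enriched at 1 age alone was outside the test.

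Enrichment, the ratio of IP to input, was not called as changed in any of the 4 Gria1 or 2 Gria2 regions. In the fit of 4577 regions 0.0% were called, with 127 at an unadjusted p under 0.05 in edgeR, 28 in DESeq2 and 137 in limma, and 0 of the 4 Gria1 regions were under it in any of the 3 tools. In the fit of 10203 regions 0.0% were called as well, with 318 at an unadjusted p under 0.05 in edgeR and 61 in DESeq2, none of them in Gria1 or Gria2. Gria1 region 4 averaged an enrichment of 8.06 ± 2.81 at 6 weeks and 7.15 ± 0.44 in 2-week mice (SD over 2 libraries each), and edgeR fitted a log2 change of 0.03 ± 0.38 (SE; adjusted p = 0.999). The fitted log2 change was 0.17 ± 0.43 in Gria1 region 3, -0.46 ± 0.41 in region 2 and -0.16 ± 0.63 in region 1, none past the threshold. In Gria2, the log2 change was -0.08 ± 0.43 in region 1 and -0.43 ± 0.40 in region 2 (adjusted p = 1.0 for both). The median standard error over all 4577 regions was 0.53, and in the Gria regions it ran from 0.38 to 0.63. Which size of change these libraries could detect was not tested, so the lack of a call does not show that enrichment stayed the same.

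Control tags, read as input and so as the amount of poly(A)+ RNA at those bases, were not called either. The fit of 4577 regions called 2.18% of regions and 0 of the 4 in Gria1, of which 1 had an unadjusted p under 0.05 in edgeR, in DESeq2 and in limma, as did 15.1% of all 4577 in edgeR. This was region 2, fitted by edgeR at 0.83 ± 0.33 on the log2 scale (SE; adjusted p = 0.197). Its controls averaged 79.7 ± 2.84 tags per 10M at 6 weeks and 65.5 ± 18.3 in 2-week mice (SD over 2 libraries each), and the change was 0.29 when libraries were scaled by total tags, which put the median of all regions at -0.53 in place of -0.03. The fitted change was -0.06 ± 0.65 in Gria1 region 1, 0.25 ± 0.32 in region 3 and -0.10 ± 0.32 in region 4. In Gria2 the fit of 10203 regions, which called 0.48% of regions, gave 0.94 ± 0.34 in region 2 (adjusted p = 0.213) and 0.09 ± 0.35 in region 1 (adjusted p = 0.947), with an unadjusted p under 0.05 in 2 of the 6 regions and in 13.3% of all 10203. Scaled by total tags, the change in Gria2 region 2 was 0.43, and the median of all 10203 regions was -0.56 in place of -0.06. In whole tissue, fewer cells that express a gene and less of its RNA per cell cannot be told apart.

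IP tags alone gave 0 calls among the 4 Gria1 regions, where 1.09% of the 4577 regions were called, and 0 of the 6 regions of both genes, where 0.98% of the 10203 were called. None of the 6 had an unadjusted p under 0.05 in edgeR or DESeq2, nor any of the 4 in limma, where edgeR gave one to 17.5% of the 4577 regions and 17.1% of the 10203. The log2 change was 0.42 ± 0.44 in Gria1 region 3, 0.42 ± 0.40 in region 2, -0.23 ± 0.41 in region 1 and -0.05 ± 0.44 in region 4. It was 0.53 ± 0.44 in Gria2 region 2 and 0.07 ± 0.45 in Gria2 region 1. Over the 6 regions the median log2 change was -0.14 in enrichment, 0.17 in input and 0.23 in IP, beside 0.0030, -0.06 and -0.0025 over all 10203.

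**Figure D4:**
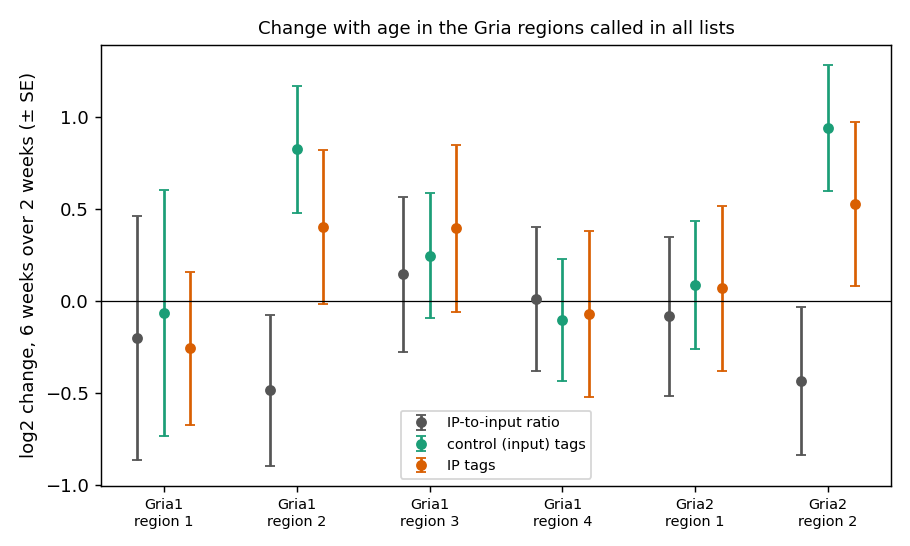
Log2 change with age, 6 weeks over 2 weeks, in the ratio of IP to input, in control tags and in IP tags for the 6 regions called in all lists, from the edgeR fit of 10203 regions. Points are fitted values and bars 1 standard error on either side; the control tags of Gria1 region 2 and Gria2 region 2 lie highest, at 0.82 and 0.94, and no point passed the adjusted threshold.

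The balance between the subunits was compared as the ratio of Gria1 to Gria2 tags within a library, which needs no scaling between libraries. In the regions called in all lists, the printed peak widths summed to the same length in every library, 400 bp in Gria1 and 300 bp in Gria2. Bases shared by overlapping Gria2 peaks count more than once in that sum. They were 58 bp in 6-week replicate 1, 36 bp in 6-week replicate 2 and 76 bp in 2-week replicate 2. The distinct Gria2 bases therefore differed between libraries. Per 100 bp of summed width, Gria1 held 772 and 375 IP tags per 10M at 6 weeks, against 518 and 782 at 2 weeks. Gria2 held 822 and 539 per 100 bp at 6 weeks, against 579 and 725 at 2 weeks. In both genes 6-week replicate 2 was the lowest library.

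The ratio of summed Gria1 to Gria2 IP tags was 1.25 and 0.928 at 6 weeks, against 1.19 and 1.44 at 2 weeks. The summed regions held 65.9% and 70.7% of the IP tags in Gria1 peaks at 6 weeks, against 96.5% and 86.0% at 2 weeks. In Gria2 they held 98.4% and 67.9% at 6 weeks, against 75.7% and 79.3% at 2 weeks. The ratio thus left out unequal parts of the listed tags, among them the Gria2 region at 80492487, called in 3 lists. The log2 ratio averaged 0.11 ± 0.31 at 6 weeks and 0.39 ± 0.19 in 2-week libraries (SD, n = 2 per age), a difference of -0.28 (exact two-sided permutation p = 0.667; 2 libraries against 2 cannot go below 0.33). Leaving out 1 library moved it between -0.50, without 6-week replicate 1, and -0.06, without 6-week replicate 2, with -0.41 without 2-week replicate 1 and -0.15 without 2-week replicate 2. For control tags the ratio was 1.19 and 1.40 at 6 weeks, against 1.39 and 1.88 at 2 weeks. The summed regions held 49.2% and 71.5% of the control tags in Gria1 peaks at 6 weeks, against 95.4% and 83.2% at 2 weeks. In Gria2 they held 97.0% and 57.8% at 6 weeks, against 58.6% and 62.9% at 2 weeks. The log2 ratio averaged 0.37 ± 0.17 at 6 weeks and 0.69 ± 0.30 in 2-week libraries (SD, n = 2 per age), a difference of -0.32 (exact two-sided permutation p = 0.667), which ran from -0.54 without 2-week replicate 1 to -0.11 without 2-week replicate 2, with -0.20 without 6-week replicate 1 and -0.44 without 6-week replicate 2. The ages overlapped in both ratios. Summed over every peak in the windows instead, the differences were 0.21 in IP and 0.57 in control tags, so their direction depended on which peaks entered.

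**Figure D5:**
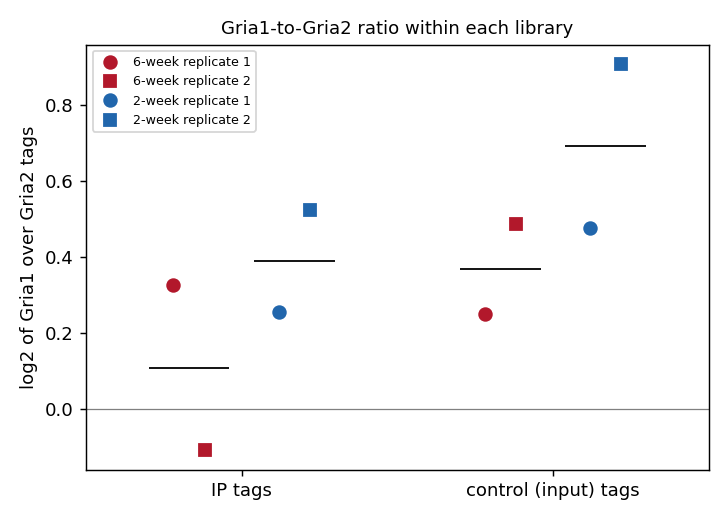
Log2 ratio of Gria1 to Gria2 tags within each library, over the regions called in all lists, for IP tags (left) and control tags (right). Each point is 1 library (red, 6 weeks; blue, 2 weeks) and each line the mean of an age, and in both measures the points of the ages overlap.

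Gria1 held more listed peaks at 6 weeks than at 2 weeks. Over its window of 320.5 kb, strong stretch included, it had 33 and 31 peaks in the 6-week lists, against 9 and 11 in the 2-week lists, with an SD of 1.41 at either age. Per 10000 peaks of the list this was 9.93 and 8.49 at 6 weeks, against 2.29 and 2.81 at 2 weeks. Over its shorter window of 123.5 kb, Gria2 had 6 and 11 peaks at 6 weeks, against 5 and 7 at 2 weeks, and the ages overlapped. Both 6-week lists held more peaks than both 2-week lists in 9.14% of genome tiles as long as the Gria1 window and in 9.43% of tiles as long as the Gria2 window that held any peak. An exact test of 2 counts against 2 cannot give a p under 0.33, so no test was run. After the tags were thinned to equal depth, Gria1 kept 30 and 31 peaks at 6 weeks and 7 and 10 at 2 weeks (medians of 20 draws). Thinning can only drop listed peaks and restores none, and the 2-week libraries were the deeper ones. Whether depth contributes to the difference was therefore not tested.

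Among the 2636 Gria1-length tiles with at least 20 peaks the share was 14.0%. In 0.607% of them, 16 tiles, the ratio of 6-week to 2-week peaks was at least that of Gria1. The comparison with tiles was chosen after the Gria1 counts were seen.

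Most of the additional Gria1 peaks were weak. Leaving out the strong stretch, 6-week replicate 1 had 29 peaks with a median of 16.7 IP tags per 10M (7.44 to 298), and 6-week replicate 2 had 27 with a median of 11.5 (5.45 to 36.9). At 2 weeks replicate 1 had 6 such peaks with a median of 17.9 (3.41 to 29.0), and replicate 2 had 7 with a median of 11.3 (5.23 to 66.2). Heights are known only for listed peaks, which are all at 3-fold over control or more. The listed peaks outside the stretch had similar median heights at both ages, and their number differed. Together they held 827 and 361 IP tags per 10M at 6 weeks over 2900 and 2700 bp of peaks, against 102 and 154 at 2 weeks over 600 and 700 bp. Their control tags summed to 189 and 70.0 per 10M at 6 weeks, against 21.8 and 25.5 at 2 weeks. Without the tallest such peak of each library, the IP sums were 529 and 324 per 10M at 6 weeks, against 73.4 and 88.0 at 2 weeks, and the control sums 111 and 59.8 at 6 weeks, against 15.4 and 16.0 at 2 weeks.

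By position, the Gria1 peaks gathered at both ends of the window. The first 40 kb, on the 5' side, held 6 and 12 peaks at 6 weeks, against 1 and 1 at 2 weeks. The stretch from 280 to 320 kb held 25 and 15 at 6 weeks, against 7 and 9 at 2 weeks. The 240 kb between them held 2 and 4 peaks at 6 weeks, against 1 and 1 at 2 weeks. The tallest peak outside the strong stretch, at 56825343 near the 5' end, held 298 IP tags per 10M at 3.86-fold over control in 6-week replicate 1. It was not listed in any other library, and 2-week replicate 2 had a peak of 11.3 IP tags per 10M that started at 56825224.

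Most of these weak peaks were called in a single library. Of the 63 Gria1 regions, 53 were called in 1 list only, 25 and 22 of them at 6 weeks, against 3 and 3 at 2 weeks. In the whole series 58.6% of regions were called in 1 list only. Leaving out the regions called in all lists, 3 of 29 peaks of 6-week replicate 1 overlapped a peak of 6-week replicate 2, and 17 of the 29 had one within 1 kb. Over the whole series 18.2% of such peaks overlapped one and 47.1% had one within 1 kb. A peak of 2-week replicates 1 and 2 lay within 1 kb of 8 and 10 of the 29, and of 49.7% and 47.5% of such peaks over the whole series. The 2-week lists hold fewer peaks than 6-week replicate 2 in the Gria1 window, but more over the whole series.

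In both genes, as over the whole series, few regions were called in both lists of 1 age and neither list of the other. The counts are too small to be set apart from the series-wide shares given beside them. In Gria1 2 of 63 regions were called in both 6-week lists and neither 2-week list, and in Gria2 1 of 14, where 1.92% of all regions were. The first, at 57112066 in Gria1, held 29 and 24 IP tags, with folds over control of 3.55 and 4.26. The next, at 56849389 in Gria1, held 17 and 9 IP tags over 3 and 0 control tags, and the one at 80588596 in Gria2 held 16 and 15, with folds of 5.22 and 5.32. In the 2-week lists alone 1 Gria1 region was called in both, at 57111332, with 8 and 12 IP tags, and 0 of 14 Gria2 regions, where 6.41% of all regions were. A region at 57104549 in Gria1 was called in both 6-week lists with 29.1 and 36.9 IP tags per 10M and in 2-week replicate 2 with 9.15. The region at 57128583 was called in 6-week replicate 1 with 14.9 IP tags per 10M, against 29.0 and 66.2 at 2 weeks. 

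Outside its strong stretch Gria2 had 3 and 7 peaks at 6 weeks, against 1 and 3 at 2 weeks. The tallest were 2 peaks of 6-week replicate 2, at 80510865 with 113 IP tags per 10M and at 80506359 with 95.7, at 3.07-fold and 3.20-fold over control. Neither was listed in another library. A peak at 80508604 to 80508713 was called with 15.1 IP tags per 10M in 6-week replicate 2 and 23.1 in 2-week replicate 2. Peaks called in 1 list, and the regions of 2 or 3 lists given here other than those of 1 age, were named after their values were seen.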

How the data were processed

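Per the labels, poly(A)+ RNA fragments were immunoprecipitated for m6A and sequenced beside inputs. Build mm9, HOMER, Cufflinks 2.2.1, TopHat2 (2.1.1, 2.0.13) and Bowtie2 2.2.3 appear, roles unstated, in the submitters' processing notes. Per the file headers, HOMER peaks were called for each library by itself; which options were set is not given in the sources used here. Only for 2-week replicate 1 are the deposited IP tags whole counts, with control tags scaled to them; elsewhere the authors scaled IP tags to the control, so these deposited columns are signal. The headers do not say which input was the control. Normalized tag signal, score, p-value against control and fold ratio were also deposited by the authors, and the deposited focus ratio, a fraction, was not used. Whole tags were recovered by dividing by the value of 1 tag (100.0% whole within 0.2 tag in every list), and a control of 0.5 tag was set to 0.

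The members and lists were chosen with earlier results of these data known. Enrichment was the interaction of fraction and age with a term per sample, and IP and input were fitted on age with an offset for peak width, in edgeR 4.0.16 with TMM scaling (R 4.3.3, limma 3.58.1, DESeq2 1.42.0, Python 3.11.15, scipy 1.17.1). The fits were also run on simulated counts with changes larger than any fitted here in a Gria region. That run does not show which changes these data could detect. Values in every library are given for regions called in all lists, for those called in both lists of 1 age only, and the place of the highest-scoring peak of each list is named. Gria3, Gria4, the auxiliary subunits and marker genes of the tissue had no position in mm9 here and were not analysed.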

Additional observations from a re-analysis of the deposited data

How the results depend on the processing

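In the 96 fitted values per comparison, over all regions and settings tried, no Gria region passed the adjusted threshold, with a lowest adjusted p of 0.349 in enrichment, 0.122 in input and 0.18 in IP. Total tags turned the sign of enrichment in Gria1 region 1 (0.015) and Gria2 region 1 (0.040), of input in Gria1 region 3 (-0.29) and Gria2 region 1 (-0.44), and of IP in Gria1 region 2 (-0.075) and Gria2 region 1 (-0.41). DESeq2 gave no adjusted p for input in Gria1 region 1. The 18 other reversals of fitted changes came from leaving out a library. Enrichment then ran from -0.44 to 0.63 in Gria1 region 1, from -0.54 to 0.86 in region 3, from -0.13 to 0.18 in region 4 and from -0.82 to 0.67 in Gria2 region 1. Input ran from -1.12 to 0.42 in Gria1 region 1, from -0.064 to 0.55 in region 3, from -0.30 to 0.15 in region 4 and from -0.23 to 0.47 in Gria2 region 1. IP ran from -0.058 to 0.78 in Gria1 region 2, from -0.33 to 0.18 in region 4 and from -0.44 to 0.44 in Gria2 region 1. With no change of sign, enrichment ran from -0.81, without 6-week replicate 2, to -0.11, without 6-week replicate 1, in Gria1 region 2, and from -0.68, without 6-week replicate 1, to -0.18, without 6-week replicate 2, in Gria2 region 2. The cause was not tested.

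The Gria1 to Gria2 difference was 0.21 in IP and 0.57 in control tags over every peak, and 6.11 in IP at 8-fold or more, where few peaks enter by construction; control tags gave no value there, and regions with 1 peak in each list gave none, as Gria2 has none. At 8-fold or more the mean number of peaks per list was 8.0 at 6 weeks and 1.5 at 2 weeks in Gria1, and 3.5 and 3.0 in Gria2. With at least 20 IP tags, added after the data were seen, Gria1 had 20.5 at 6 weeks and 8.0 at 2 weeks. The replicate block, whose numbers the labels tie to no shared animal or day (correlation of deviations 0.03 in IP and 0.05 in input), gave 0 Gria calls. Its difference of -0.28 in the IP ratio equals the main one by construction. Fits of Gria2 regions under other settings and the strongest-peak settings were added after the data were seen. Without 6-week replicate 2, enrichment had an unadjusted p under 0.05 in 2 of the 4 Gria1 regions (10.7% of all 4577) and, in the fit of 10203 regions, in 3 of the 6 (9.99% of all), against 0 with it. Series-wide calls ranged from 0 to 6 in enrichment, from 0 to 657 in input and from 0 to 1302 in IP.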
